A study of Saccharomyces cerevisiae with 6 samples.

Results

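GCN4 and 36 genes of histidine, lysine, aromatic, homoserine and threonine, serine and asparagine synthesis were followed in budding yeast carrying the mms21RINGD allele and in wild type. The members were taken by systematic name from a list of genes by pathway, with no threshold on a measured value, although the list was drawn up with earlier results of these data known. All 37 were found among the 7126 features of the deposited table. They comprise the activator gene GCN4, 7 histidine genes, 8 lysine genes, 10 aromatic genes, 5 homoserine and threonine genes, 4 serine genes and 2 asparagine genes. RNA was measured in 3 libraries of the mutant, whose labels give genotype and strain as mms21RINGD, and in 3 libraries of wild type of strain W303. MMS21 codes for a ligase that couples the modifier SUMO to its target proteins; the allele name refers to the RING domain, the catalytic part of such ligases. Both groups were harvested in exponential growth in YPD with CSM, a rich medium with added amino acids and other supplements, and ribosomal RNA was depleted from total RNA. The labels do not say whether the mutant strain is 1 clone or whether replicates were separate cultures, so the p-values rest on the differences among libraries of a group, which may be technical. They also do not give the marker alleles: W303 strains commonly carry mutated HIS3 and TRP1, so the levels of these genes are those of whatever allele or marker copy each strain holds.

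Gcn4 is a transcription activator that binds upstream of most genes of amino acid synthesis. Its own synthesis is controlled mainly in translation: when uncharged tRNA activates the kinase Gcn2, short reading frames ahead of the GCN4 coding sequence are bypassed and more Gcn4 is made from the same transcript. Several pathways also have their own control, such as Lys14 for lysine genes and the transcribed upstream RNA SRG1 for SER3. With plentiful amino acids, as in this medium, much of the control rests on feedback inhibition of the first enzymes.

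Gcn4 recognizes the letters TGACTCA on either strand, and the 6 letters TGACTC within it are also the core of sites of Bas1, an activator of histidine and adenine genes. In the 400 bases ahead of the start codon, TGACTC on either strand was found for 24 of the 37 members (64.9%) and for 620 of 6001 protein-coding genes (10.3%). The full TGACTCA was found for 15 members (40.5%) and for 203 genes (3.4%). All 37 gene spans begin with the start codon, and the windows were read from the RefSeq sequence of R64, which the build named for the data, sacCer3, also is. The windows below are written 5′ to 3′ on the strand of the gene, and capitals mark the match. The first 4 belong to genes that were higher in the mutant on the values as deposited, HIS4, HIS5, LYS1 and ASN1, and the next 4 to genes with the same letters that were not called, HIS1, ARO4, TRP3 and ASN2. The last 2, of HIS6 and THR1, which were lower, hold the 6 letters alone.
HIS4, chrIII:68499-68559, minus strand: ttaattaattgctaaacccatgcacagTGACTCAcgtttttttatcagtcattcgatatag
HIS5, chrIX:142699-142759, plus strand: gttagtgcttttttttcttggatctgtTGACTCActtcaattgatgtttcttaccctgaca
LYS1, chrIX:420953-421013, minus strand: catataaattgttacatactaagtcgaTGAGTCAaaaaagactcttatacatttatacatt
ASN1, chrXVI:822366-822426, plus strand: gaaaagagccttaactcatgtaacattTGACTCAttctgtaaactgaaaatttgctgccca
HIS1, chrV:265936-265996, minus strand: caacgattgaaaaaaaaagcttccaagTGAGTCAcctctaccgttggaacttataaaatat
ARO4, chrII:718273-718333, minus strand: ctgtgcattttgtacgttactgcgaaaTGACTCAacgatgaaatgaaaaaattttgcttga
TRP3, chrXI:38243-38303, minus strand: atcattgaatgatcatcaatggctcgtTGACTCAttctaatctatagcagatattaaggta
ASN2, chrVII:739720-739780, plus strand: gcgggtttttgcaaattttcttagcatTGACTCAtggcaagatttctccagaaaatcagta
HIS6, chrIX:314882-314941, minus strand: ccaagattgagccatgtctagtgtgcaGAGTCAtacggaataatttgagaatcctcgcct
THR1, chrVIII:159310-159369, plus strand: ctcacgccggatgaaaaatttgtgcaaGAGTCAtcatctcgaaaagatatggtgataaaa
In the called genes shown TGACTCA begins 199 (HIS4), 202 (HIS5), 250 (LYS1) and 227 (ASN1) bases ahead of the start codon. In the uncalled genes shown it begins 184 (HIS1), 312 (ARO4), 123 (TRP3) and 197 (ASN2) bases ahead. In LYS14, also uncalled, it begins 250 bases ahead. The same letters thus stood ahead of called and uncalled genes, over ranges of distance that overlapped. HIS4, called higher, held 3 copies of TGACTC, 1 of them within TGACTCA, and HIS5 likewise held 3. SER3, which was among the members with the largest fold changes, held none in this window.

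The libraries held 19265000 to 24034000 reads in the mutant and 20888000 to 24625000 reads in wild type, rounded to 1000 reads, and each member had between 170 and 17784 reads per library, recovered from the RPKM values (reads per kilobase of gene, scaled to the reads of the library). MMS21 itself measured 16.6, 12.9 and 13.5 RPKM in the mutant libraries, against 3.23, 3.04 and 2.18 RPKM in the wild type libraries (log2 fold change 2.01 ± 0.15, limma adjusted p = 0.000152), and a level over the whole gene does not show which part was read. All libraries had the pattern of a cells: MFA2, the a-factor gene, was at 1293 to 1345 RPKM in the mutant and 1380.0 to 1492 RPKM in wild type, and STE3, the receptor gene of alpha cells, at 2.15 to 2.83 RPKM in the mutant and 0.747 to 0.912 RPKM in wild type. Of the 5 a-cell genes examined BAR1 had 1 read in mutant replicate 3 and was listed at 0 in the other libraries, and of the 4 others MFA2, STE2 and STE6 were called lower in the mutant. These 3 calls were all lost without mutant replicate 1, 2 or 3 or wild type replicate 2, and in the fit with replicate blocks. Without wild type replicate 3 the number lower was 1, and without wild type replicate 1 it was 3. Of 4 alpha-cell genes, all low, 3 were called higher, against 2 with median-of-ratios scaling and 1, with 1 lower, after quantile normalization; of the a-cell genes 3 were lower with the first and 1 higher and 1 lower with the second. Stress genes moved with the groups. The 6 stress markers examined, HSP12, HSP26, DDR2, CTT1, SSA4 and HSP104, all rose, by a median of 4.81 on the log2 scale. Relative to the wild type mean their median was 4.71, 4.81 and 4.92 in mutant replicates 1, 2 and 3 and 0.44, -0.22 and -0.36 in wild type replicates 1, 2 and 3, so wild type replicate 1 stood apart within its group, on the mutant's side. The part of this state in the results on amino acid genes was not tested. The median over the 37 members was 0.15, 0.21 and 0.25 in mutant replicates 1, 2 and 3 and 0.04, 0.02 and -0.07 in wild type replicates 1, 2 and 3 on the same scale. In 25 of the 37 members wild type replicate 1 lay beyond both other wild type libraries on the side of the mutant mean. The share of all features with this pattern was not worked out, so the count cannot be read as a trait of these genes.

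Of the 37 members 18 were higher and 4 lower in mms21RINGD, and 15 were not called. A call is an adjusted p under 0.05 in limma, a linear model with moderated variances, fitted to log2(RPKM + 1) of 6731 features and adjusted over all of them (Benjamini-Hochberg); a log2 fold change is the mutant minus wild type on that scale, and the number after ± beside it is its standard error. Across all tested features 42.7% were higher and 10.9% lower, so the members' shares of 48.6% and 10.8% lay close to the background. The median log2 fold change was 0.21 over the members and 0.24 over all features. The 2 groups of libraries did not overlap for 20 members that were higher and 6 that were lower, against 50.1% and 14.3% of all features. Among the members the log2 fold change ran from 1.57 for HIS4 to -0.30 for ARO2.

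**Figure D1:**
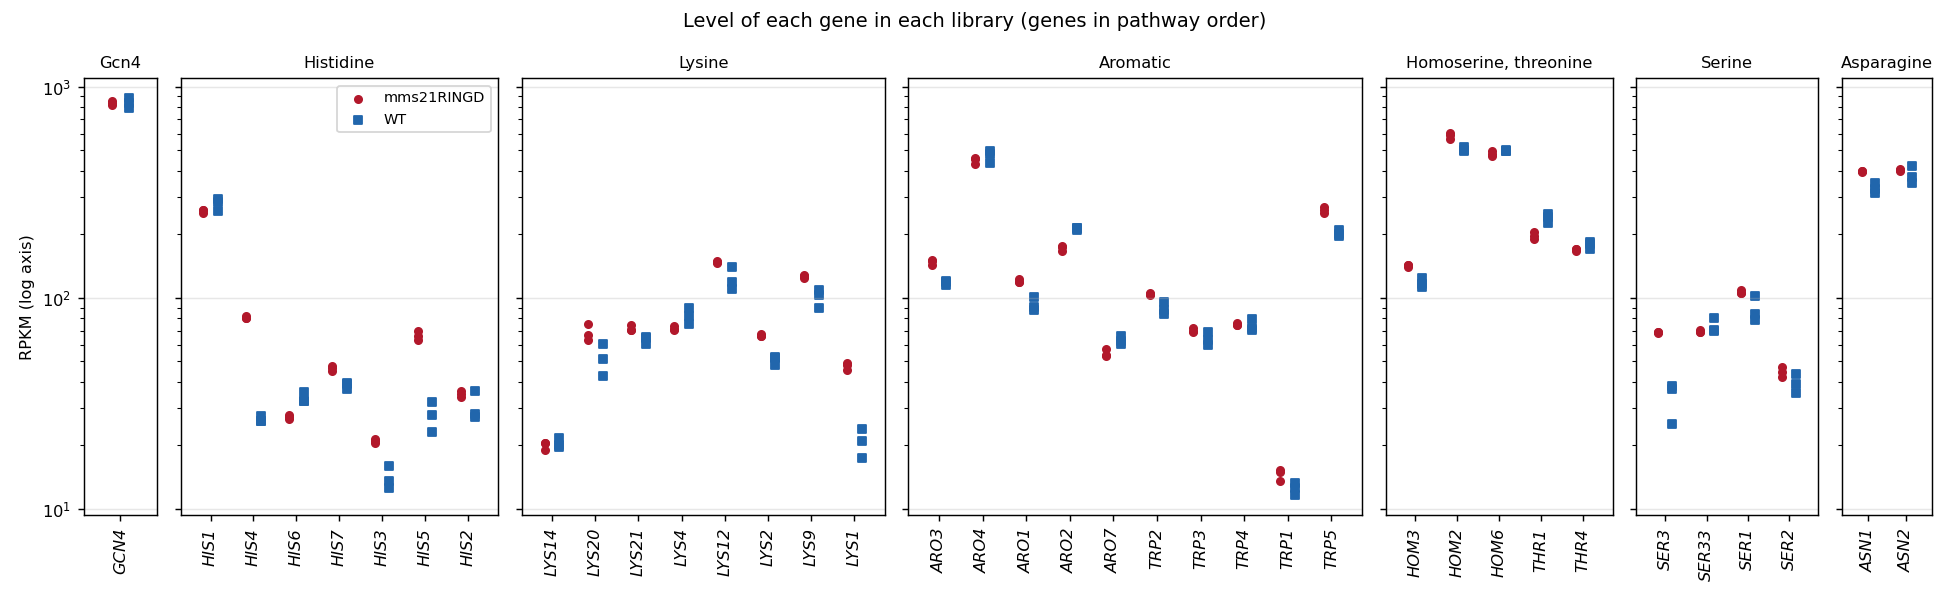
RPKM on a log axis of the 37 genes in each library, with 3 mms21RINGD libraries (circles) left of 3 WT libraries (squares) for each gene, grouped by pathway and set in the order of the steps, with alternative enzymes beside each other. HIS4, HIS5, LYS1 and SER3 show wide gaps between the groups, while GCN4 points overlap.

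The calls depended on the scaling of the libraries. With median-of-ratios scaling, which takes the typical feature as unchanged and moved the median of all features to 0.00, 5 members were higher and 13 lower, where 25.4% and 27.1% of all features were. With quantile normalization, which gives every library the same distribution of values and moved that median to -0.10, 12 were higher and 9 lower, against 20.3% and 34.6% of all features. HIS3, HIS4, HIS5, LYS1 and SER3 were called higher, and HIS6, ARO2, ARO7 and THR1 lower, as deposited and under both other scalings. Leaving out wild type replicate 1 gave 23 higher and 7 lower members, where 57.3% and 15.3% of all features were, and leaving out mutant replicate 3 gave 12 and 2, against 27.6% and 6.46%. With mutant replicate 1 or 2 left out there were 14 and 13 higher members and 3 lower in each case, against 31.8% and 28.5% higher and 7.36% and 6.83% lower features. With wild type replicate 2 or 3 left out there were 15 and 14 higher members and 3 lower in each case, against 29.4% and 31.7% higher and 6.92% and 7.85% lower features. The member counts stayed at 18 and 4 with pseudocounts of 0.1 RPKM (42.5% and 10.8% of all features) and 5 RPKM (43.1% and 10.9%), without a filter (40.9% and 10.2%) and with a filter at 10 RPKM (39.5% and 13.5%). They were 19 and 4 with voom on recovered reads (46.9% and 11.2%), and 14 and 3 in a fit with replicate blocks (33.4% and 8.16%). The settings tried all kept the calls of HIS3, HIS4, HIS5, LYS1 and SER3 as higher and of ARO2 and THR1 as lower.

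**Figure D2:**
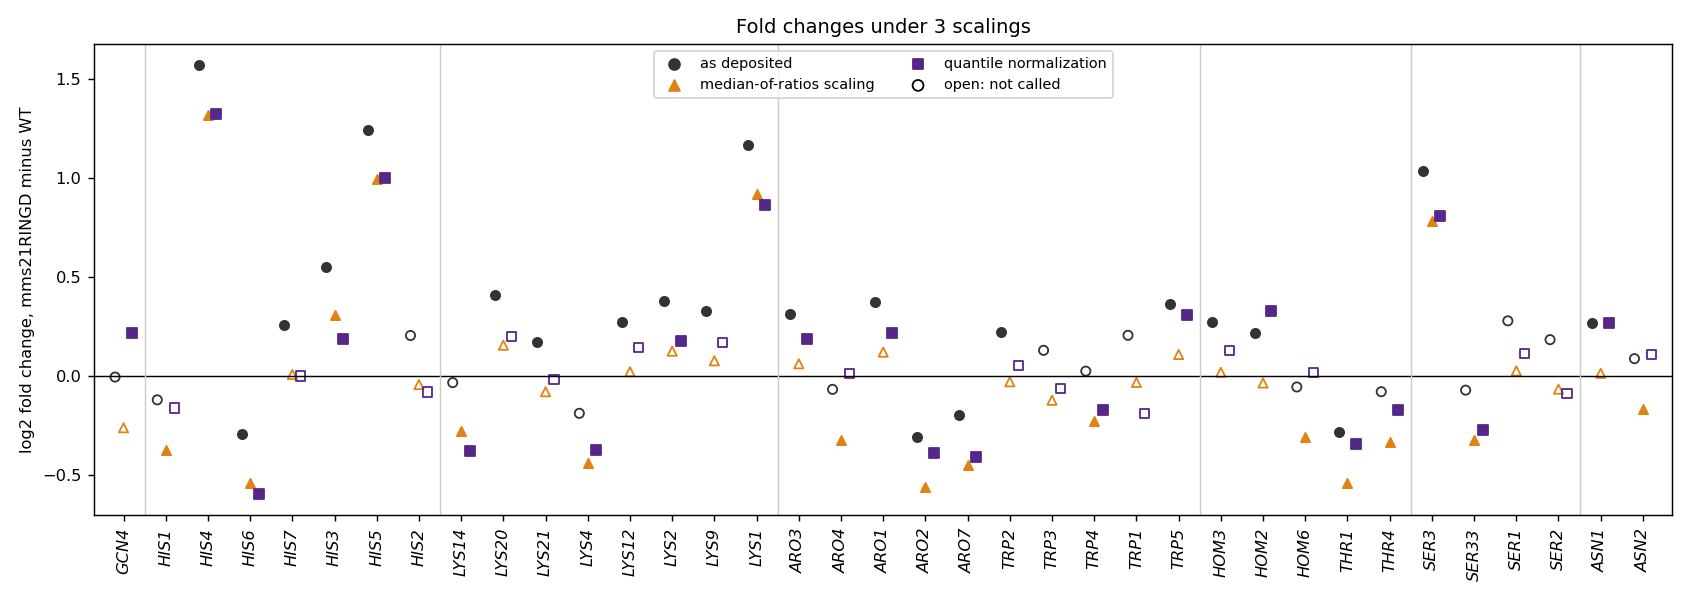
Log2 fold change of each gene, mms21RINGD minus WT, as deposited (circles), with median-of-ratios scaling (triangles) and with quantile normalization (squares), filled where called. HIS4, HIS5, LYS1 and SER3 stay at or above 0.79 in all 3 while most of the smaller positive values lie nearer 0, or below it, after median-of-ratios scaling.

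The GCN4 transcript did not pass the test. GCN4 (YEL009C, chrV:138918-139763, minus strand) measured 853, 821 and 835 RPKM in the mutant libraries, against 797, 882 and 840.1 RPKM in the wild type libraries. The mutant values lay inside the wild type range, at means of 837 ± 15.8 RPKM in the mutant and 839.5 ± 42.3 RPKM in wild type (SD, n = 3 each; log2 fold change 0.00, 95% interval -0.12 to 0.11; limma adjusted p = 0.949). Quantile normalization put it higher (0.22, called) and median-of-ratios scaling lower (-0.26, not called). Per kilobase it had the highest mean level of all 37 members in both groups. These values do not measure Gcn4 protein, and in bulk samples fewer cells expressing a gene and less RNA per cell cannot be told apart.

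PCL5 was the gene with the largest fold change among 11 genes that act on Gcn4 or with it. Pcl5 is a cyclin that, with the kinase Pho85, marks Gcn4 for breakdown, and its gene is a known target of Gcn4. PCL5 measured 156, 160.2 and 173 RPKM in the mutant libraries, against 50.8, 49.8 and 49.0 RPKM in the wild type libraries, and the lowest mutant library was more than 3 times the highest wild type library (log2 fold change 1.69 ± 0.06, limma adjusted p = 1.32e-05). GCN2, the kinase of the pathway, rose (log2 fold change 0.33 ± 0.07, limma adjusted p = 0.0117), as did YIH1, a protein that binds the Gcn2 partner Gcn1 (log2 fold change 0.23 ± 0.06, limma adjusted p = 0.0219); neither was called under the other scalings, where GCN2 was -0.025 with quantile normalization and YIH1 -0.02 with median-of-ratios scaling. The GCN2 call also needed mutant replicates 2 and 3, and the YIH1 call every library but wild type replicates 1 and 2. The other 8 were not called, and of these GCN3 (-0.12) and GCD7 (0.13), subunits of the exchange factor eIF2B, and MBF1 (0.23), a bridge of Gcn4 to the transcription machinery, were nearest to the threshold. With 3 of 11 called higher and none lower, the median was 0.03, against 0.24 over all features, of which 42.7% were higher and 10.9% lower. Under each of the other scalings 1 of the 11, PCL5, was higher and 4 were lower, GCN3 and, named after their values were seen, GCN20, GCD1 and GCD2, with medians of -0.23 for median-of-ratios scaling and -0.11 for quantile normalization.

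In histidine synthesis 4 of 7 genes rose, 1 fell and 2 did not pass, where 42.7% of all features were higher and 10.9% lower. Their median log2 fold change was 0.26, against 0.24 over all features. With median-of-ratios scaling 3 were higher and 2 lower, against 25.4% and 27.1% of all features. Quantile normalization gave 3 and 1, against 20.3% and 34.6%. The genes at the ends of the fold change range code for successive steps. HIS4 (YCL030C, chrIII:65934-68333, minus strand), a single protein for several steps, the last of the pathway included, measured 80.1, 80.4 and 82.4 RPKM in the mutant libraries, against 26.2, 27.5 and 26.1 RPKM in the wild type libraries. All mutant libraries lay far above all wild type libraries, a 3.04-fold ratio of means (log2 fold change 1.57 ± 0.06, limma adjusted p = 1.28e-05). HIS6 (YIL020C, chrIX:314035-314820, minus strand), the isomerase that acts on the product of the first His4 steps, measured 27.1, 28.0 and 26.6 RPKM in the mutant libraries, against 32.4, 36.0 and 32.5 RPKM in the wild type libraries. Here the mutant libraries were the lower ones, without overlap (log2 fold change -0.29 ± 0.07, limma adjusted p = 0.0118), though the call was lost without mutant replicate 3 (-0.275). HIS1, the feedback-inhibited first enzyme of the pathway, was at the highest level of the 7, 259.7, 251 and 260.0 RPKM in the mutant libraries, against 258, 285 and 296 RPKM in the wild type libraries. The groups overlapped and it was not called (log2 fold change -0.12, 95% interval -0.27 to 0.03; limma adjusted p = 0.152); it was lower with median-of-ratios scaling (-0.37) and without wild type replicate 1 (-0.175).

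Later in the pathway, HIS5 (YIL116W, chrIX:142928-144085, plus strand), the histidinol-phosphate aminotransferase, measured 63.3, 66.3 and 69.4 RPKM in the mutant libraries, against 32.0, 27.9 and 23.1 RPKM in the wild type libraries. The mutant values were near or above 2 times the highest wild type value, that of replicate 1, and the ratio of means was 2.40 (log2 fold change 1.24 ± 0.12, limma adjusted p = 0.00041). HIS3 (YOR202W, chrXV:721946-722608, plus strand), the dehydratase before it and a common strain marker, was low in both groups, at 21.4, 20.9 and 20.6 RPKM in the mutant libraries, against 16.1, 13.5 and 12.6 RPKM in the wild type libraries. It rose (log2 fold change 0.55 ± 0.09, limma adjusted p = 0.0039), and whether both strains hold the same HIS3 allele cannot be told from these values. HIS7, the enzyme that closes the imidazole ring, rose less (log2 fold change 0.26 ± 0.06, limma adjusted p = 0.0117), with 0.01 and 0.00 under median-of-ratios scaling and quantile normalization and no call in either, nor without mutant replicate 2 or 3. HIS2, the histidinol phosphatase, was at 33.8, 35.2 and 36.3 RPKM in the mutant libraries, against 36.2, 28.3 and 27.1 RPKM in the wild type libraries; wild type replicate 1 lay within the mutant range, and the gene was called higher only when that library was left out (0.33).

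**Figure D3:**
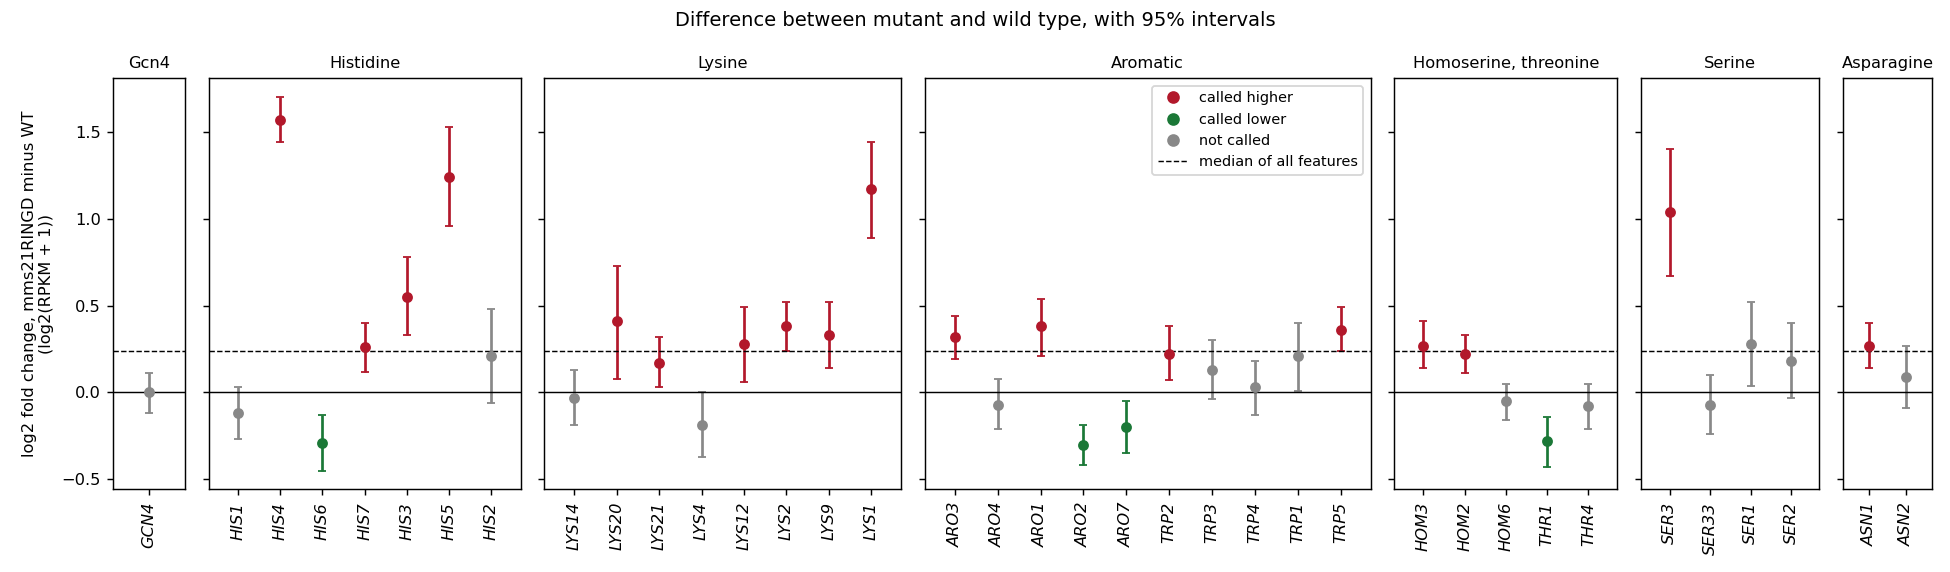
Log2 fold change, mms21RINGD minus WT, of each gene with its 95% interval from the limma fit, by pathway, coloured by call; the dashed line is the median of all features, 0.24. Within histidine synthesis the values run from 1.57 for HIS4 to -0.29 for HIS6.

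In lysine synthesis 6 of 8 genes rose and none fell, with a median of 0.30, where 42.7% of all features were higher. The number higher was 3, 3 and 2 without mutant replicates 1, 2 and 3, and 6, 4 and 3 without wild type replicates 1, 2 and 3. With median-of-ratios scaling 1 was higher and 2 lower, against 25.4% and 27.1% of all features. Quantile normalization gave 2 and 2, against 20.3% and 34.6%. LYS1 (YIR034C, chrIX:419615-420736, minus strand), the saccharopine dehydrogenase that releases lysine in the last step, measured 45.6, 48.0 and 49.2 RPKM in the mutant libraries, against 24.0, 21.1 and 17.4 RPKM in the wild type libraries. The groups were far apart, with a 2.29-fold ratio of means (log2 fold change 1.17 ± 0.12, limma adjusted p = 0.000479). LYS9, the saccharopine dehydrogenase of the step before, rose by 0.33 (127, 124 and 128 RPKM in the mutant libraries, against 108, 103 and 89.9 RPKM in the wild type libraries; limma adjusted p = 0.0136), and its call was lost without mutant replicate 3 and under both other scalings (0.08 and 0.17). LYS2, the aminoadipate reductase, measured 66.1, 65.8 and 67.2 RPKM in the mutant libraries, against 52.4, 51.9 and 48.2 RPKM in the wild type libraries. Its groups did not overlap (log2 fold change 0.38 ± 0.06, limma adjusted p = 0.00284), and it was not called with median-of-ratios scaling (0.13). LYS12, the homoisocitrate dehydrogenase, rose by 0.28 (limma adjusted p = 0.0404), a call that was lost on leaving out any library but wild type replicate 1, and under both other scalings (0.02 and 0.14).

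LYS4, homoaconitase, was the lowest of the lysine genes by fold change, with 71.1, 70.7 and 73.8 RPKM in the mutant libraries, against 75.0, 89.6 and 81.8 RPKM in the wild type libraries. The groups did not overlap but the test was missed (log2 fold change -0.19, 95% interval -0.37 to 0.00; limma adjusted p = 0.0798); it was called lower under both other scalings (-0.44 and -0.37) and without wild type replicate 1 (-0.25). LYS14, the transcription activator of lysine genes, was at 20.5, 20.6 and 18.9 RPKM in the mutant libraries, against 20.1, 21.6 and 19.7 RPKM in the wild type libraries. Its groups overlapped (log2 fold change -0.03, 95% interval -0.19 to 0.13; limma adjusted p = 0.711), while it was lower under both other scalings (-0.275 and -0.38). The letters TCCNNNGGA, a core of Lys14 sites, were found in the 400 bases ahead of 5 of the 8 lysine genes (62.5%), those of LYS1, LYS9, LYS12, LYS21 and LYS14, against 4.6% of all protein-coding genes; LYS2, LYS4 and LYS20 held none in that window. The LYS1 match, which lies between its 2 copies of TGACTC, is shown here with its bases in capitals.
LYS1, chrIX:420897-420959, minus strand: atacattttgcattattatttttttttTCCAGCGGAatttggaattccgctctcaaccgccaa

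In aromatic synthesis 4 of 10 genes rose and 2 fell, where 42.7% of all features were higher and 10.9% lower. The aromatic median was 0.17, against 0.24 over all features. None was higher and 4 were lower with median-of-ratios scaling, against 25.4% and 27.1% of all features. With quantile normalization 3 were higher and 3 lower, against 20.3% and 34.6%. Neighbouring steps of the shared part of the pathway went opposite ways. ARO1 (YDR127W, chrIV:704484-709250, plus strand), a protein of several enzyme domains that carries out the middle steps, measured 123, 119 and 119 RPKM in the mutant libraries, against 100.5, 90.2 and 87.4 RPKM in the wild type libraries. The lowest mutant library lay above the highest wild type one (log2 fold change 0.38 ± 0.07, limma adjusted p = 0.00508), and with median-of-ratios scaling it was not called (0.12). ARO2 (YGL148W, chrVII:226399-227529, plus strand), chorismate synthase, which takes the product of that part, measured 166, 176 and 175 RPKM in the mutant libraries, against 214, 215 and 209.8 RPKM in the wild type libraries. All mutant values were lower (log2 fold change -0.30 ± 0.05, limma adjusted p = 0.00336). ARO7, chorismate mutase, at the branch to phenylalanine and tyrosine, measured 53.1, 53.9 and 57.2 RPKM in the mutant libraries, against 60.3, 62.6 and 65.7 RPKM in the wild type libraries. It fell (log2 fold change -0.20 ± 0.06, limma adjusted p = 0.0372), but the call was lost on leaving out any library but wild type replicate 1.

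Of the genes of the tryptophan branch, TRP5 (YGL026C, chrVII:446412-448535, minus strand), tryptophan synthase at the end of the branch, had the highest level, 270.0, 253 and 259.9 RPKM in the mutant libraries, against 209.9, 202 and 196 RPKM in the wild type libraries. Its groups did not overlap (log2 fold change 0.36 ± 0.05, limma adjusted p = 0.00225), and with median-of-ratios scaling it was not called (0.11). TRP2, which with part of Trp3 forms anthranilate synthase at the head of the branch, rose by 0.22 (limma adjusted p = 0.0258) but was not called under either other scaling (-0.03 and 0.05), and its call needed every library but wild type replicate 1. TRP3 and TRP4, the anthranilate phosphoribosyltransferase, were not called, at 0.13 and 0.03; TRP3 was called higher without wild type replicate 1 (0.19), and TRP4 lower under both other scalings (-0.23 and -0.17). TRP1, the phosphoribosylanthranilate isomerase and a common strain marker, had the lowest mean level of all 37 genes per kilobase, at 13.5, 14.98 and 15.3 RPKM in the mutant libraries, against 12.6, 13.3 and 11.6 RPKM in the wild type libraries. Its groups did not overlap but it was not called (log2 fold change 0.21, 95% interval 0.01 to 0.40; limma adjusted p = 0.0699), and it was not called in any setting.

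Among the 5 homoserine and threonine genes, those of the first steps from aspartate rose and the homoserine kinase gene fell. HOM3 (YER052C, chrV:256375-257958, minus strand), aspartate kinase, measured 143, 143 and 140.5 RPKM in the mutant libraries, against 124, 116 and 112 RPKM in the wild type libraries, and HOM2, aspartate semialdehyde dehydrogenase, 603, 566 and 594 RPKM in the mutant libraries, against 516, 495 and 499 RPKM in the wild type libraries. Neither gene's groups overlapped (log2 fold change 0.27 ± 0.06, limma adjusted p = 0.00873 for HOM3; log2 fold change 0.22 ± 0.05, limma adjusted p = 0.00826 for HOM2), though with median-of-ratios scaling neither was called, HOM2 turning to -0.03, and HOM3 was not called with quantile normalization (0.13). THR1 (YHR025W, chrVIII:159438-160511, plus strand), homoserine kinase, which commits homoserine to threonine, measured 189.5, 204 and 195 RPKM in the mutant libraries, against 241, 250.5 and 226 RPKM in the wild type libraries. The mutant libraries were the lower ones without overlap (log2 fold change -0.28 ± 0.06, limma adjusted p = 0.00944), and THR1 stayed lower in every setting tried. HOM6, homoserine dehydrogenase, and THR4, threonine synthase, were not called, at -0.05 and -0.08, and both were lower after median-of-ratios scaling (-0.31 and -0.33, called), THR4 also with quantile normalization (-0.17). The group's median was -0.05, against 0.24 over all features, of which 42.7% were higher and 10.9% lower. With median-of-ratios scaling 3 genes were lower and none higher, against 27.1% and 25.4% of all features. Quantile normalization gave 2 lower and 1 higher, against 34.6% and 20.3%.

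In 4 steps the cell has a pair of enzymes for the same reaction, and for 3 of these pairs the ratio of the 2 transcripts did not overlap between the groups. Among all single features the groups did not overlap for 50.1% that were higher and 14.3% that were lower. No such share was worked out for ratios of other gene pairs. No pair could pass, since the exact permutation test of 3 against 3 libraries cannot go below p = 0.1. For serine, SER3 and SER33 code for 3-phosphoglycerate dehydrogenase, the first enzyme. SER3 (YER081W, chrV:322686-324095, plus strand) measured 68.3, 69.2 and 69.0 RPKM in the mutant libraries, against 25.3, 37.2 and 38.2 RPKM in the wild type libraries. SER33 (YIL074C, chrIX:221081-222490, minus strand) measured 69.0, 70.8 and 69.1 RPKM in the mutant libraries, against 79.9, 70.2 and 69.7 RPKM in the wild type libraries. The SER3 libraries fell into separate groups (log2 fold change 1.04 ± 0.15, limma adjusted p = 0.00234), while SER33 overlapped (log2 fold change -0.07, 95% interval -0.24 to 0.10; limma adjusted p = 0.424), and SER33 was called lower under both other scalings (-0.32 and -0.27). The genes are of equal length, and their RPKM levels were nearly equal in the mutant but not in wild type. The ratio of SER3 to SER33 was 0.990, 0.977 and 0.999 in the mutant libraries, against 0.317, 0.530 and 0.548 in the wild type libraries, a difference of 1.11 ± 0.25 in log2 ratio (exact two-sided permutation p = 0.1, the smallest that 3 against 3 allows; 0.133 adjusted over 4 pairs). Without wild type replicate 1 the difference was 0.86.

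SER3 is known to be repressed in serine-rich medium by transcription of SRG1, an RNA that starts 474 bases ahead of the SER3 start codon, runs on the same strand and in the annotation overlaps its first 77 bases. SRG1 measured 59.3, 62.6 and 61.5 RPKM in the mutant libraries, against 70.5, 60.04 and 56.5 RPKM in the wild type libraries. The groups overlapped (log2 fold change -0.02, 95% interval -0.24 to 0.19; limma adjusted p = 0.845), with 1.70 RPKM of SD in the mutant and 7.26 in wild type (n = 3 each); under both other scalings it was called lower (-0.27 and -0.22). Wild type replicate 1 had the highest SRG1 and the lowest SER3 of the 6 libraries. CHA1, the serine and threonine deaminase gene that is induced by these amino acids, measured 56.5, 55.8 and 57.1 RPKM in the mutant libraries, against 47.0, 25.2 and 24.6 RPKM in the wild type libraries. It rose (log2 fold change 0.85 ± 0.24, limma adjusted p = 0.0234), but wild type replicate 1 lay near the mutant, and the call needed every library but that one. CHA4, the activator of CHA1, rose as well (log2 fold change 0.31 ± 0.08, limma adjusted p = 0.0194), with 0.07 and -0.10 and no call under median-of-ratios scaling and quantile normalization, nor without mutant replicate 2 or 3 or wild type replicate 3. The later serine genes SER1, the phosphoserine aminotransferase, and SER2, the phosphatase, were not called, at 0.28 and 0.18 (limma adjusted p = 0.0535 and 0.118), and both were called higher without wild type replicate 1 (0.39 and 0.255), SER1 also with voom on recovered reads (0.28).

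ARO3 and ARO4 code for the DAHP synthases that open aromatic synthesis, the first inhibited by phenylalanine and the second by tyrosine. ARO3 (YDR035W, chrIV:521816-522928, plus strand) measured 143, 149 and 151 RPKM in the mutant libraries, against 119, 120.0 and 116 RPKM in the wild type libraries. ARO4 (YBR249C, chrII:716882-717994, minus strand) measured 462, 431 and 453 RPKM in the mutant libraries, against 437, 494 and 480.3 RPKM in the wild type libraries. ARO3, the lower of the pair in every library, rose (log2 fold change 0.32 ± 0.05, limma adjusted p = 0.00346), and ARO4 did not pass (log2 fold change -0.07, 95% interval -0.21 to 0.08; limma adjusted p = 0.387). With median-of-ratios scaling ARO3 was not called (0.06) and ARO4 was lower (-0.32, called), as it was without wild type replicate 1 (-0.12). Their ratio averaged 0.329 ± 0.0180 in the mutant and 0.252 ± 0.0174 in wild type (SD, n = 3 each), a difference of 0.38 ± 0.07 in log2 ratio without overlap (exact permutation p = 0.1, adjusted 0.133). The difference was 0.17 with quantile normalization.

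ASN1 and ASN2 code for asparagine synthetases. ASN1 (YPR145W, chrXVI:822620-824338, plus strand) measured 396, 401 and 400.3 RPKM in the mutant libraries, against 349, 329 and 314 RPKM in the wild type libraries. ASN2 (YGR124W, chrVII:739944-741662, plus strand) measured 408, 400.5 and 403 RPKM in the mutant libraries, against 420.1, 373 and 348 RPKM in the wild type libraries. ASN1 rose (log2 fold change 0.27 ± 0.05, limma adjusted p = 0.00701; 0.01 and not called with median-of-ratios scaling), while wild type replicate 1 was above all mutant libraries for ASN2, which was not called (log2 fold change 0.09, 95% interval -0.09 to 0.27; limma adjusted p = 0.33). Under median-of-ratios scaling ASN2 fell below the wild type level (-0.17, called), and it was higher without wild type replicate 1 (0.16). The ratio of ASN1 to ASN2 averaged 0.988 ± 0.0162 in the mutant and 0.872 ± 0.0363 in wild type (SD, n = 3 each), higher in every mutant library (log2 difference 0.18 ± 0.04, exact permutation p = 0.1, adjusted 0.133).

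The pair of homocitrate synthase genes at the head of lysine synthesis did not separate. LYS20 (YDL182W, chrIV:133437-134723, plus strand) measured 66.7, 74.9 and 63.2 RPKM in the mutant libraries, against 51.6, 60.6 and 42.6 RPKM in the wild type libraries. LYS21 (YDL131W, chrIV:227393-228715, plus strand) measured 70.3, 70.8 and 74.6 RPKM in the mutant libraries, against 64.8, 65.4 and 60.8 RPKM in the wild type libraries. Both passed as deposited (log2 fold change 0.41 ± 0.14, limma adjusted p = 0.0412 for LYS20; log2 fold change 0.17 ± 0.06, limma adjusted p = 0.0473 for LYS21), neither with the other scalings, where LYS21 turned to -0.08 and -0.02 and LYS20 was 0.16 and 0.20. The LYS21 call also needed every library but wild type replicate 1, and the LYS20 call every library but wild type replicates 1 and 2. Their ratio overlapped between the groups, at 0.951 ± 0.106 in the mutant and 0.808 ± 0.113 in wild type (SD, n = 3 each; log2 difference 0.23 ± 0.15, exact permutation p = 0.2). The coding sequences are 91.4% identical over aligned bases, and 468 stretches of 50 bases in each, 37.8% of those in LYS20 and 36.7% in LYS21, also occur elsewhere in the genome, so the assignment of reads between the pair is uncertain. For SER3 and SER33 the share was 0.81% (82.4% identity), for ASN1 and ASN2 2.04% (81.2%), and for ARO3 and ARO4 no 50-base stretch was shared (66.3%).

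**Figure D4:**
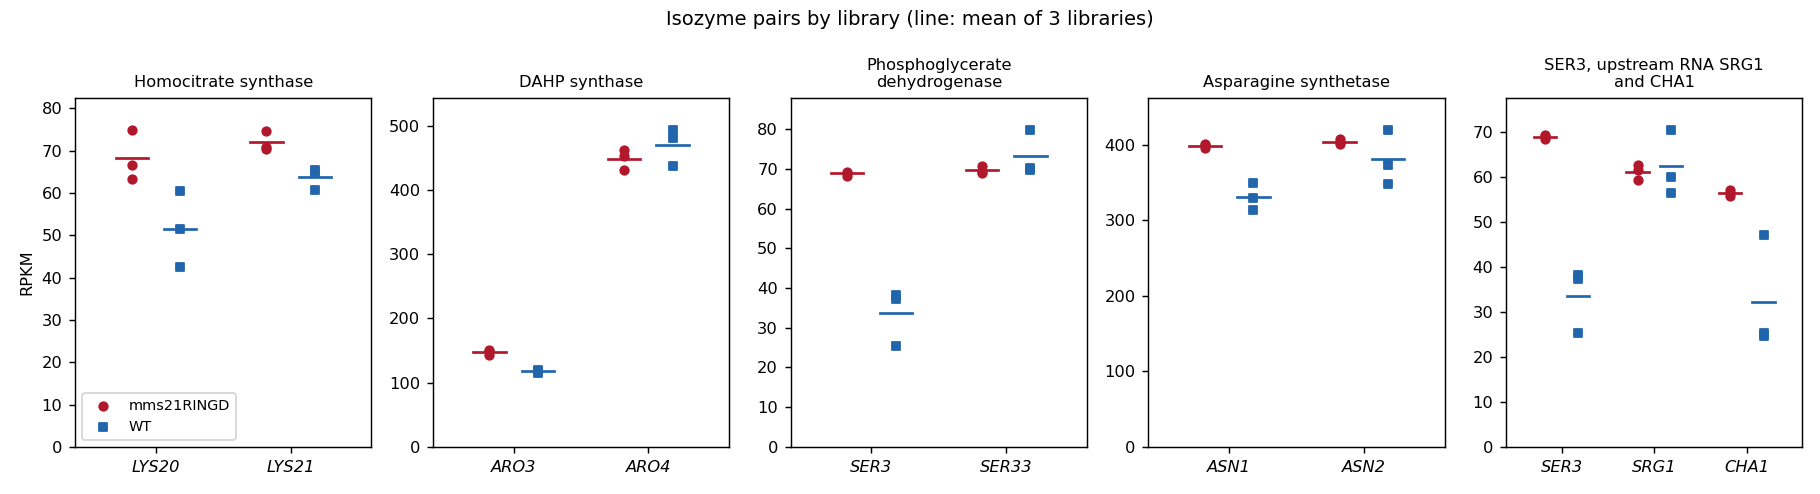
RPKM by library of the 4 isozyme pairs and, at the right, of SER3, the upstream RNA SRG1 and CHA1, with mms21RINGD (circles) left of WT (squares) and lines at the mean of 3 libraries. SER3 stands near SER33 in the mutant and below it in WT, and SRG1 overlaps between the groups.

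Among 11 genes of other steps in these pathways 4 rose and 2 fell, where 42.7% and 10.9% of all features did, and their median was 0.18. With median-of-ratios scaling 2 were higher and 3 lower (median -0.07), against 25.4% and 27.1% of all features. Quantile normalization gave 3 and 4 (median -0.03), against 20.3% and 34.6%. ARO9, an aromatic aminotransferase gene induced by aromatic amino acids, measured 49.8, 49.4 and 49.7 RPKM in the mutant libraries, against 30.8, 28.4 and 30.7 RPKM in the wild type libraries. The mutant libraries were all higher (log2 fold change 0.71 ± 0.06, limma adjusted p = 0.000232), and ARO80, the activator of ARO9 and ARO10, also rose (log2 fold change 0.71 ± 0.14, limma adjusted p = 0.00647; 0.19 and not called with quantile normalization). SHM2, the cytosolic serine hydroxymethyltransferase gene, measured 206, 213 and 210.1 RPKM in the mutant libraries, against 164, 113 and 105 RPKM in the wild type libraries, again with wild type replicate 1 nearest to the mutant (log2 fold change 0.74 ± 0.16, limma adjusted p = 0.00997). TYR1, prephenate dehydrogenase, and ARO8, the other aromatic aminotransferase gene, rose by 0.32 and 0.19 (limma adjusted p = 0.0073 and 0.0196), TYR1 being 0.07 and 0.06 and not called under the other scalings and ARO8 -0.07 and not called with median-of-ratios scaling. The ARO8 call needed every library but wild type replicate 1. AAT1, the mitochondrial aspartate aminotransferase gene, and GLY1, threonine aldolase, fell by 0.31 and 0.19 on the log2 scale (limma adjusted p = 0.00344 and 0.0119), the GLY1 call being lost without mutant replicate 2 or wild type replicate 2.

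All 3 genes of breakdown were called, 2 higher and 1 lower, where 42.7% of all features were higher and 10.9% lower. ARO10, a decarboxylase gene of aromatic breakdown, rose (log2 fold change 0.76 ± 0.17, limma adjusted p = 0.0105) beside CHA1. ASP1, the cytosolic asparaginase gene, measured 185, 179.6 and 171 RPKM in the mutant libraries, against 253, 299 and 296 RPKM in the wild type libraries and fell without overlap (log2 fold change -0.66 ± 0.08, limma adjusted p = 0.00103). Of 6 regulators of single pathways 4 rose, ARO80, CHA4, PHO2, the partner of Bas1 (0.49), and MKS1, a negative regulator of lysine genes (0.24). The median over the 6 was 0.28, close to the 0.24 over all features, of which 42.7% were higher. With median-of-ratios scaling 2 of the 6 were higher and 1 lower, against 25.4% and 27.1% of all features. With quantile normalization none was higher and 2 were lower, MKS1 (-0.16) and SRG1, against 20.3% and 34.6%. MKS1 was also not called with median-of-ratios scaling (0.01), and its call needed every library but wild type replicate 1. BAS1 itself was not called (0.11, limma adjusted p = 0.221).

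**Figure D5:**
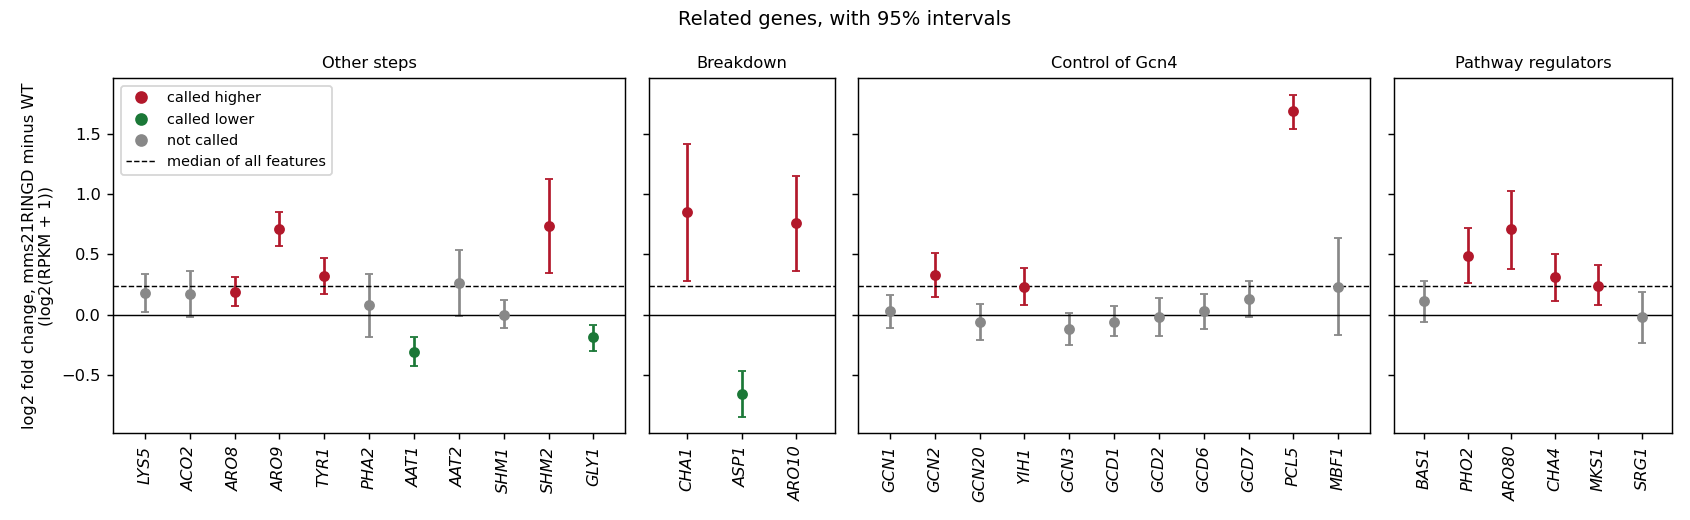
Log2 fold change, mms21RINGD minus WT, of genes of other steps, of breakdown, of Gcn4 control and of single pathway regulators, with 95% intervals from the limma fit and the median of all features (dashed, 0.24). PCL5 has the highest value, 1.69, and ASP1 the lowest, -0.66.

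The calls were also set against the upstream letters. On the values as deposited, of the 15 members with TGACTCA 10 were higher, none was lower and 5 were not called. With median-of-ratios scaling 3 of them were higher, HIS4, HIS5 and LYS1, and 4 lower, HIS1, LYS14, ARO4 and ASN2. With quantile normalization 7 were higher and 1 lower, LYS14. Without wild type replicate 1 there were 12 and 2, where 69.8% and 12.1% of all tested protein-coding genes with TGACTCA were. With any other library left out 8 or 9 were higher and none lower, where 40.2% to 45.2% and 4.0% to 5.5% of those genes were. Of the 22 members without TGACTCA 8 were higher and 4 lower as deposited. These were 2 and 9 with median-of-ratios scaling and 5 and 8 with quantile normalization. Among all 199 tested protein-coding genes with TGACTCA 58.3% were higher and 8.0% lower as deposited, against 44.6% and 11.2% of the 5555 without it. These shares were 33.7% and 23.1% with the letters and 27.1% and 28.5% without them after median-of-ratios scaling, and 33.2% and 25.6% with them and 20.8% and 36.5% without them after quantile normalization. Of the 24 members with the 6 letters TGACTC 12 were higher and 2 lower as deposited, close to the 51.7% and 11.6% of all 606 genes with them; of the genes without them 44.3% were higher. After median-of-ratios scaling 4 of the 24 were higher and 9 lower, against 29.9% and 25.9% of all genes with these letters. After quantile normalization 8 were higher and 6 lower, against 24.9% and 32.0% of those genes. The match describes letters in the window and shows no binding.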

How the data were processed

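RNA of 3 mms21RINGD and 3 wild type libraries was measured by sequencing after ribosomal RNA depletion. The authors deposited 1 table of RPKM values, with 1 column per library, which were assigned by title. Per the submitters' processing notes, CASAVA 1.8.2, TopHat2 2.0.8, edgeR 3.8.6 and the build sacCer3 were used, with no role given. For the read counter, annotation and strand setting the sources used here say nothing; no other annotated gene overlaps a member, apart from SRG1 on SER3. Names and positions came from the RefSeq annotation of R64 (6048 features by systematic name, 31 by symbol). The product of RPKM and gene span came to whole reads, to within 0.02, after division by 1 constant per library for 99.8% of values above 0 in matched features, which gave the library totals and reads.

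limma 3.58.1 in R 4.3.3 was fitted to log2(RPKM + 1) of the 6731 features averaging 1 RPKM or more, with a variance trend and no covariate, two-sided, with Benjamini-Hochberg adjustment; the fit was tested on simulated data. The log2(RPKM + 1) scale understates the change of low genes. Intervals are from the same fit. Isozyme ratios were compared by exact permutation over libraries. The fit was repeated with a pseudocount of 0.1 or 5 RPKM, without the filter or with one at 10 RPKM, after median-of-ratios scaling or quantile normalization, with voom on recovered reads, with a term for the replicate number, and with each library left out in turn. All members could be named, as could genes of the related lists that passed the test or came nearest to it. The members, lists and tests were chosen with earlier results of these data known.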

Additional observations from a re-analysis of the deposited data

How the results depend on the processing

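The 18 higher and 4 lower members were the same genes with pseudocounts of 0.1 and 5 RPKM and with either other filter, and voom on recovered reads added SER1, giving 2 higher serine genes. Median-of-ratios scaling left 5 members higher and made 13 lower, with a median of -0.034; by pathway there were 2 lower histidine, 1 higher and 2 lower lysine, 0 higher and 4 lower aromatic, 0 higher and 3 lower homoserine and threonine, 1 lower serine, and 0 higher and 1 lower asparagine genes. Quantile normalization gave 9 lower members and a median of 0.053, with 2 higher and 2 lower lysine, 1 higher and 2 lower homoserine and threonine and 1 lower serine gene, and an ARO3 to ARO4 difference of 0.173. Over all features 2875 were higher and 732 lower as deposited, 1713 and 1821 with median-of-ratios scaling and 1369 and 2330 with quantile normalization. Directions turned with median-of-ratios scaling for LYS21 (-0.078), TRP2 (-0.028), TRP4 (-0.227), HOM2 (-0.034), ASN2 (-0.166), ARO8 (-0.066), SHM1 (-0.253) and YIH1 (-0.019), and with quantile normalization for GCN4 (0.221), LYS21 (-0.018), TRP4 (-0.172), LYS5 (-0.173), PHA2 (-0.344), GCN2 (-0.025), CHA4 (-0.097), MKS1 (-0.156), MFA2 (0.068) and MF(ALPHA)2 (-0.563). The scalings differ by construction in which features they hold level; no other cause was tested. When 1 library was left out, 12 to 23 members were higher and 2 to 7 lower, with medians from 0.182 to 0.255; the ranges were 3 to 5 higher and 0 to 2 lower for histidine, 2 to 6 and 0 to 1 for lysine, 3 to 5 and 1 to 3 for aromatic, 2 and 1 throughout for homoserine and threonine, 1 to 3 and 0 for serine, and 1 to 2 and 0 for asparagine genes. The isozyme differences then ranged from 0.139 to 0.336 (LYS20 over LYS21), 0.349 to 0.439 (ARO3 over ARO4), 0.859 to 1.242 (SER3 over SER33) and 0.147 to 0.205 (ASN1 over ASN2). Deviations of same-numbered libraries from their group means correlated at -0.143, 0.046 and -0.096, and the highest correlation was that of mutant replicate 1 with wild type replicate 3 (0.206). The labels state no pairing. These correlations cannot decide whether same-numbered libraries belong together, since the deviations within a group of 3 are tied to each other. With the replicate number as a block, 14 members were higher and 3 lower, with 1 lower aromatic gene. Members had at least 170 reads in each library; the number of libraries limits the precision, and an exact permutation test of 3 against 3 cannot go below 0.1.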
